A study of Mus musculus with 9 samples.

Results

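The complement components described here are the genes C1qa, C1qb, C1qc, C4b, Cfb, C3ar1, C5ar1 and Cd55, chosen by symbol in the platform annotation. They are 8 of 20239 annotated genes, each measured by 1 probe set on an Affymetrix array. C3 was on the list too, but its symbol was paired with no probe set in the annotation used, and it was not analysed here. The arrays came from whole hearts of male C57BL/6 mice, 3 hearts in each of 3 groups. All mice received an adeno-associated virus at 8 weeks of age, underwent surgery 4 weeks later and gave their hearts 4 weeks after that. The first group had transaortic constriction (TAC), which loads the heart with pressure, and a virus coding for amino acids 1 to 201 of histone deacetylase 4 (HDAC4-NT). The second had TAC and a luciferase virus, and the third had sham surgery and the luciferase virus. An MLC promoter drove both viral coding sequences, and which cells expressed them was not measured. Sham hearts with HDAC4-NT were not analysed here.

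Complement is a cascade of plasma and tissue proteins that tags dead cells, immune complexes and microbes. C1q is built of the A, B and C chains and starts the classical pathway. Of its partner proteases C1r and C1s, C1s cleaves C4, and the C4b fragment stays on the surface and helps to form the enzyme that cleaves C3. Factor B, the product of Cfb, forms the matching enzyme of the alternative pathway. The small fragments C3a and C5a signal through the receptors C3ar1 and C5ar1, and Cd55 takes the C3-cleaving enzymes apart. Much of the complement in blood is made by the liver, while tissue C1q comes largely from macrophages.

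Upstream sequences are shown for C1qb and C1qc, neighbouring genes that moved together, and for C3ar1, which did not move with them. RefSeq upstream sequence was at hand for 5 of the 8 genes, namely C1qb, C1qc, C3ar1, C5ar1 and Cd55. Each run below holds the 250 bases before the annotated gene start, 5′ to 3′ on the gene's strand. Capitals mark GAGGAA and GGAAGT, sequences bound by ETS family factors such as the myeloid factor PU.1, and TGANTCA, bound by AP-1, on either strand. The motifs were chosen after the sequences were read.
C1qb (GRCm38.p6, chr4:136886201-136886450, minus strand): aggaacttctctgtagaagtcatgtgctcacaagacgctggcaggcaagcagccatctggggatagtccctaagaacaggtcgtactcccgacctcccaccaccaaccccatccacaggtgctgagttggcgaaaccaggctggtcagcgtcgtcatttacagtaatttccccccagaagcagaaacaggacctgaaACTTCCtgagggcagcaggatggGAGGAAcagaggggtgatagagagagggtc
C1qc (GRCm38.p6, chr4:136892915-136893164, minus strand): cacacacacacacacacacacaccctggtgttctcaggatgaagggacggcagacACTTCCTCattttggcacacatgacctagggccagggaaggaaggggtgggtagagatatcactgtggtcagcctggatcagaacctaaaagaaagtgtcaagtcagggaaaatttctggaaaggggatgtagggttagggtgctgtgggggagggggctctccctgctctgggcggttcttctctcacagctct
C3ar1 (GRCm38.p6, chr6:122856158-122856407, minus strand): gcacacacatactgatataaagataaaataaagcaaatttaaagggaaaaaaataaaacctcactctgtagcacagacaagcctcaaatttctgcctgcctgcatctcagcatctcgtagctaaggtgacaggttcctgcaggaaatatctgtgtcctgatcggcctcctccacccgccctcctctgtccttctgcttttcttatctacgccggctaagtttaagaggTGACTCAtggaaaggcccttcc

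GAGGAA and GGAAGT each occurred once upstream of C1qb, the nearest match starting 30 bases before the gene start. In C1qc they overlapped in a single run that begins 195 bases before the start. C3ar1 held neither, and had 1 TGANTCA match 22 bases before its start. C5ar1 had 2 GGAAGT matches and Cd55 had none of these motifs. Among 32851 upstream windows of the same length, 23.3% held GAGGAA, 19.7% held GGAAGT and 6.75% held TGANTCA. A match describes the letters in the window and is no evidence that a factor bound there.

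In outline, the C1q chains and C4b were higher in both TAC groups than in sham hearts, by 1.43-fold to 1.82-fold. Cd55 was 1.28-fold higher in TAC hearts with HDAC4-NT than in sham hearts. C3ar1 was split within the TAC luciferase group, and C5ar1 passed no comparison. Values are log2 RMA expression, a background-corrected and quantile-normalised scale, and a difference of 1 is a 2-fold change. The test was limma, fitted to 12597 genes on all 9 arrays, and a call required a Benjamini-Hochberg adjusted p under 0.05. Cfb was too low to be among them, so 7 of the 8 genes were tested.

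TAC luciferase hearts 2 and 3 stood apart from the other hearts. The second principal component held 20.01% of the variance over tested genes, and these hearts lay at -16.2 and -13.8 on it, against 4.79 for TAC luciferase heart 1 and 8.05 to 11.9 for the HDAC4-NT hearts. Across genes, heart 1 correlated with hearts 2 and 3 at 0.986 to 0.987 and with the HDAC4-NT hearts at 0.991 to 0.992. TAC luciferase hearts 2 and 3 also share the number that opens their sample codes, and heart 1 has a different number. HDAC4-NT hearts 2 and 3 likewise share a number that HDAC4-NT heart 1 lacks. The HDAC4-NT hearts correlated with each other at 0.994 to 0.996. No such number is shared between groups. The labels do not explain it, and its part in the split was not tested. All 8 cardiomyocyte markers were high on all 9 arrays, with a lowest log2 value of 11.74. Their linear sum was lower in TAC than in sham hearts, where it ran from 68580.9 to 70624.9. It ran from 65641 to 66315.2 in HDAC4-NT hearts and from 63839.6 to 65941.3 in TAC luciferase hearts. Of the 8 markers, limma called only Myh6 in TAC luciferase against sham (-0.23, adjusted p 0.0271), and 0 in HDAC4-NT against sham. Over all tested genes, 14.9% fell in the first comparison and 12.3% in the second. By direction, 1 of the 8 markers stood above sham with TAC luciferase and 2 with HDAC4-NT. These are whole hearts, so fewer cells of a type and less RNA per cell cannot be told apart in any result below.

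**Figure D1:**
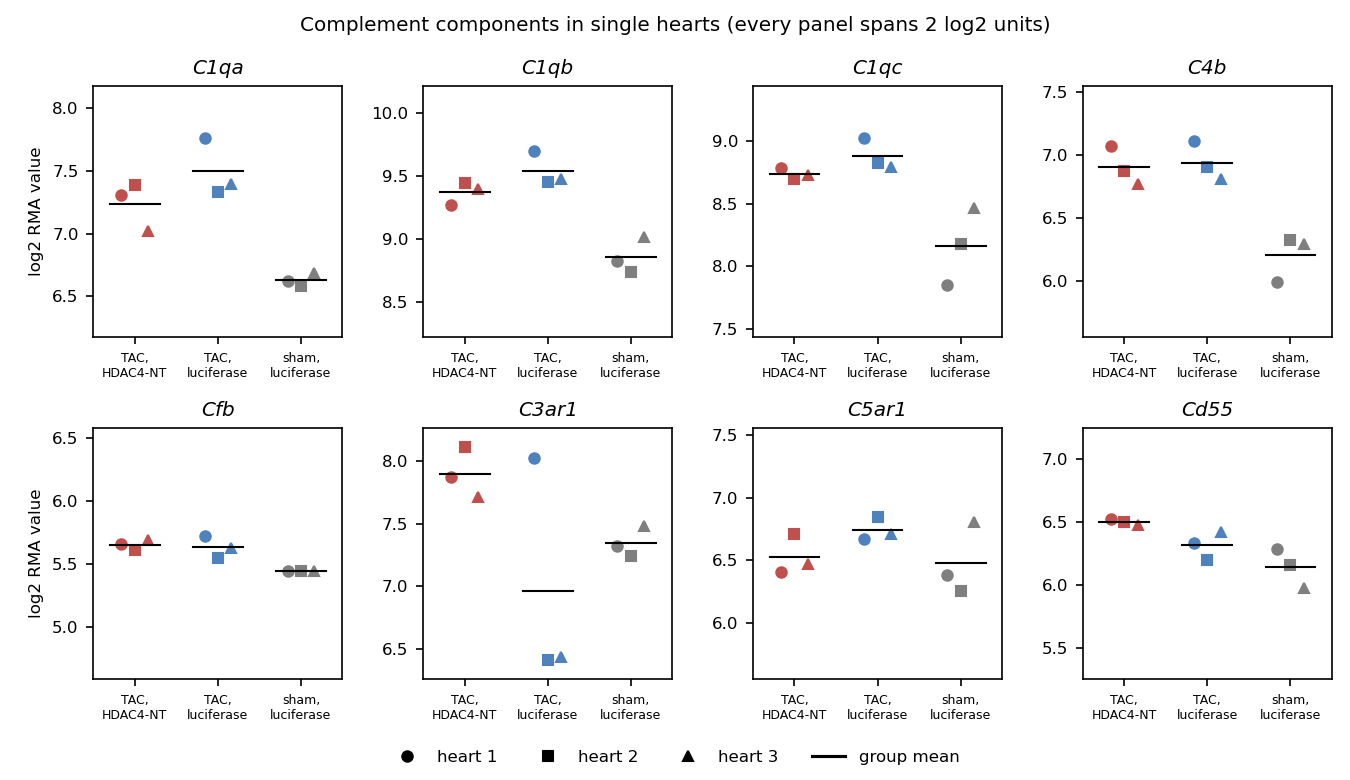
Log2 RMA values of the 8 complement genes in single hearts, with TAC HDAC4-NT, TAC luciferase and sham luciferase hearts from left to right, symbols for the heart number and lines for group means. Sham values lie below all 6 TAC values for C1qa, C1qb, C1qc, C4b and Cfb, and C3ar1 falls to 6.42 and 6.44 in 2 of the 3 TAC luciferase hearts.

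C1qa, which encodes the A chain, had log2 values of 7.30, 7.39 and 7.02 in TAC HDAC4-NT hearts, 7.76, 7.33 and 7.39 in TAC luciferase hearts and 6.62, 6.58 and 6.69 in sham hearts. Every TAC heart lay above every sham heart, and the TAC groups overlapped. Its mean was 7.24 ± 0.19 with HDAC4-NT, 7.50 ± 0.23 with luciferase and 6.63 ± 0.05 in sham (SD, n = 3 each). C1qa rose 1.82-fold in TAC luciferase hearts against sham (log2 fold change 0.87, SE 0.12, limma adjusted p 0.00103). It rose 1.52-fold in HDAC4-NT hearts against sham (0.61, SE 0.12, adjusted p 0.00693).

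C1qb, the B chain, had 9.27, 9.45 and 9.40 in HDAC4-NT hearts, 9.70, 9.45 and 9.47 in TAC luciferase hearts and 8.82, 8.73 and 9.01 in sham hearts. It rose 1.61-fold in TAC luciferase hearts (log2 fold change 0.69, SE 0.09, limma adjusted p 0.000696) and 1.43-fold in HDAC4-NT hearts (0.52, SE 0.09, adjusted p 0.00353), both against sham. C1qc, the C chain, had 8.78, 8.70 and 8.73 in HDAC4-NT hearts, 9.02, 8.82 and 8.79 in TAC luciferase hearts and 7.85, 8.18 and 8.47 in sham hearts. Here the sham hearts were the most spread group, with an SD of 0.31 against 0.04 with HDAC4-NT and 0.12 with TAC luciferase. C1qc rose 1.64-fold in TAC luciferase hearts against sham (adjusted p 0.00438) and 1.48-fold in HDAC4-NT hearts (log2 fold change 0.57, SE 0.13, adjusted p 0.0138). The second call was lost without HDAC4-NT heart 1 (log2 fold change 0.55, adjusted p 0.0521).

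Between the TAC groups the C1q chains did not pass the test. With HDAC4-NT, C1qa stood at -0.26 relative to luciferase (95% interval -0.54 to 0.02), C1qb at -0.17 (-0.38 to 0.03) and C1qc at -0.14 (-0.44 to 0.16), with limma adjusted p-values of 0.383, 0.438 and 0.724. TAC luciferase heart 1 held the highest value of all 9 hearts for each chain. For C1qb and C1qc the HDAC4-NT hearts all lay below the luciferase hearts, but the nearest hearts read 9.45 and 9.45 for C1qb and 8.78 and 8.79 for C1qc. The groups did not overlap, with HDAC4-NT lower, for 8.8% of all tested genes. Without TAC luciferase heart 1 the differences were -0.13, -0.09 and -0.07.

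Across the 9 hearts the chains followed each other, with Pearson correlations of 0.95 for C1qa with C1qb, 0.92 for C1qb with C1qc and 0.88 for C1qa with C1qc. These describe 9 arrays that fall into a sham and a TAC cluster, so much of each value is the distance between the clusters. The genes most like the mean of the chains over the 9 arrays were Ubxn4, Limk2, Arpc4, Tubb2a and Cysltr1 (r 0.98 each). In all, 251 of the 12112 genes compared reached 0.9, so such likeness was common. Ranked by Spearman correlation instead, 0 of these 5 stayed among the first 5.

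C4b encodes complement C4, which C1s cleaves. Its values were 7.07, 6.87 and 6.77 in HDAC4-NT hearts, 7.11, 6.90 and 6.81 in TAC luciferase hearts and 5.99, 6.32 and 6.29 in sham hearts. All 6 TAC hearts lay above the sham hearts, and the TAC groups covered almost the same range. C4b rose 1.67-fold in TAC luciferase hearts against sham (log2 fold change 0.74, SE 0.12, limma adjusted p 0.00174) and 1.63-fold in HDAC4-NT hearts (0.70, SE 0.12, adjusted p 0.00242). The difference between the TAC groups was -0.03 (95% interval -0.29 to 0.23, adjusted p 0.95). The near-identical gene C4a has a probe set of its own, which stayed between 5.26 and 5.39 on all arrays. Whether the probes separate the C4 genes could not be checked, so the assignment to C4b is uncertain. Over the 9 hearts C4b correlated with C1qa at 0.92 and with C1qc at 0.94, with the same limit as above. Rtkn, Gpx1 and Fam162a were most like it (r 0.98 to 0.99), and 342 genes reached 0.9. By Spearman correlation 0 of these 3 stayed among the first 3.

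Cfb, the gene of factor B, lay near the floor of the scale. It had 5.66, 5.61 and 5.69 in HDAC4-NT hearts, 5.72, 5.55 and 5.63 in TAC luciferase hearts and 5.45, 5.45 and 5.44 in sham hearts. Only 2 arrays exceeded 5.66, the 40th percentile of all values, where the filter asked for 3. The sham hearts lay below every TAC heart. In a fit without the filter, over 20239 genes, Cfb stood at 0.19 in TAC luciferase against sham (adjusted p 0.025) and at 0.21 in HDAC4-NT against sham (adjusted p 0.0179). That fit called 15.4% and 13.6% of all genes in these comparisons, and 0.0494% between the TAC groups, where Cfb stood at 0.02 (adjusted p 0.944). RMA compresses differences between values this low.

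C3ar1, the receptor for C3a on myeloid and other cells, departed from the cascade genes in TAC luciferase hearts 2 and 3. Its values were 7.87, 8.11 and 7.71 in HDAC4-NT hearts, 8.02, 6.42 and 6.44 in TAC luciferase hearts and 7.32, 7.25 and 7.48 in sham hearts. TAC luciferase heart 1 lay within the HDAC4-NT range, while hearts 2 and 3 lay below every sham heart. The group SD was 0.92 with TAC luciferase, against 0.20 with HDAC4-NT and 0.12 in sham. C3ar1 was higher with HDAC4-NT than with luciferase by 0.94 log2 units (95% interval 0.12 to 1.75), with an unadjusted p of 0.0293 and a limma adjusted p of 0.281. Without TAC luciferase heart 1 the difference was 1.47 (adjusted p 0.000359), with weighted arrays it was 1.19 (adjusted p 0.0302), and without hearts 2 and 3 it was -0.13. The last value, from a choice made after seeing the data, leaves 1 TAC luciferase heart and is given with no test. Heart 1 was unlike its group over all genes, and leaving it out brought 697 genes past the threshold in this comparison, against 32 with all hearts.

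Against sham, C3ar1 stood at -0.39 in TAC luciferase hearts (SE 0.36, adjusted p 0.501), at -0.92 without heart 1 (adjusted p 0.000619) and at 0.68 with heart 1 as the only TAC luciferase heart, also given with no test. In HDAC4-NT hearts C3ar1 lay above sham in all 3 hearts, by 0.55 log2 units or 1.46-fold. Its adjusted p of 0.341 rests on a spread that all 3 groups share, the split TAC luciferase group included. In a fit of only the 6 HDAC4-NT and sham arrays the same difference had an adjusted p of 0.00811, and 0.00438 in the common fit without TAC luciferase heart 1. These fits called 3065 and 3161 of all 12597 genes in this comparison, against 2872 with all hearts. Sstr4 (r 0.98), Vangl1 (0.95) and Ryk (0.93) were most like C3ar1 over the 9 arrays, and 15 genes reached 0.9. Over the 9 arrays, TAC luciferase hearts 2 and 3 included, its correlation with each C1q chain lay between 0.09 and 0.13.

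C5ar1, the main receptor for C5a, had 6.40, 6.71 and 6.47 in HDAC4-NT hearts, 6.67, 6.85 and 6.71 in TAC luciferase hearts and 6.39, 6.26 and 6.80 in sham hearts. The groups overlapped in every comparison, and sham heart 3 lay well above the other sham hearts. C5ar1 stood at -0.22 with HDAC4-NT relative to TAC luciferase (95% interval -0.52 to 0.09). Against sham it stood at 0.26 in TAC luciferase hearts (-0.04 to 0.56) and at 0.04 in HDAC4-NT hearts (-0.26 to 0.35), with limma adjusted p-values of 0.531, 0.198 and 0.867. Without sham heart 3 its difference between TAC luciferase and sham was 0.42 (adjusted p 0.0194). Zfp653, Itgam and Nop16 were most like C5ar1 (r 0.93 to 0.95), and 10 genes reached 0.9. Itgam, a subunit of complement receptor 3, is in the wider complement list as well.

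Cd55, which limits complement on the cell's own surface, had 6.53, 6.50 and 6.48 in HDAC4-NT hearts, 6.33, 6.20 and 6.42 in TAC luciferase hearts and 6.29, 6.16 and 5.97 in sham hearts. The HDAC4-NT hearts lay above all other hearts and close together (SD 0.02, against 0.11 and 0.16). Cd55 rose 1.28-fold in HDAC4-NT hearts against sham (log2 fold change 0.36, SE 0.08, limma adjusted p 0.0133), a call lost without HDAC4-NT heart 1 (0.35, adjusted p 0.051). In TAC luciferase against sham it stood at 0.18 (adjusted p 0.16), and in HDAC4-NT against TAC luciferase also at 0.18 (95% interval -0.01 to 0.37, adjusted p 0.36). Whether the rise differs between the TAC groups is what the last comparison tests, and it did not pass. Groups that do not overlap, with HDAC4-NT higher than luciferase, made up 11.6% of all tested genes. Hacd4, Nrros and Scai were most like Cd55 (r 0.94 to 0.95), and 48 genes reached 0.9, but 0 of these 3 stayed among the first 3 by Spearman correlation.

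**Figure D2:**
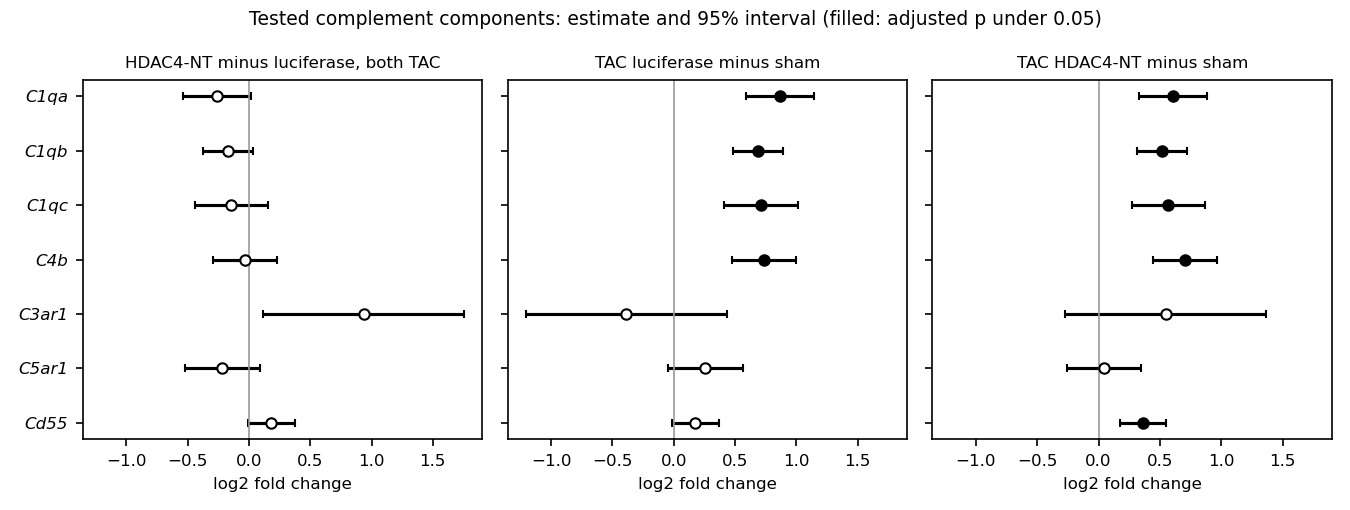
Log2 fold changes (points) with 95% intervals (bars) of the 7 tested genes in the 3 comparisons, filled where the limma adjusted p is under 0.05. C1qa, C1qb, C1qc and C4b are filled in both comparisons with sham, Cd55 in HDAC4-NT against sham, and 0 genes between the TAC groups.

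By count, 4 of the 7 tested genes rose in TAC luciferase against sham and 0 fell, where 26.1% of all tested genes were called and 11.2% rose. In HDAC4-NT against sham 5 rose and 0 fell, where 22.8% of all genes were called and 10.5% rose. The groups did not overlap, with TAC higher, for 4 and 6 of the 7 genes. The shares over all genes with TAC higher were 15.9% and 18.3%, and in either direction 37.4% and 39.7%. Their median log2 fold changes were 0.69 and 0.55, against -0.01 over all tested genes in each comparison. Between the TAC groups limma called 0 of 7, where 0.254% of all genes passed (0.143% higher), and C3ar1 alone had an unadjusted p under 0.05. Of all 12597 tested genes, 1807 had an unadjusted p under 0.05 there. There 3 of the 7 genes did not overlap between the groups (Cd55, C1qb and C1qc), against 20.4% of all genes. The median was -0.14, against 0.00 over all genes. Both comparisons with sham use the same 3 sham hearts, so they are not independent of each other.

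Some macrophage markers rose in the comparisons in which the C1q chains rose, and others did not. Of 16 markers 14 were tested, and Aif1 and Ccr2 lay too low. Adgre1 (a macrophage surface receptor), Tyrobp and Fcer1g (signalling adaptors), Laptm5 and Cd14 rose in TAC luciferase against sham, 5 of 14 with a list median of 0.29, where 11.2% of all genes rose. Cd14 passed the filter only through the TAC luciferase hearts, so its call adds no support. Adgre1, Tyrobp, Fcer1g, Laptm5, Cd68 and Csf1r rose in HDAC4-NT against sham and Lyve1 fell, with a list median of 0.39, where 10.5% of all genes rose. Over the 9 arrays the correlation with the C1q mean ran from -0.72 for Cd163 and -0.29 for Lyve1 to 0.96 for Fcer1g. Cd163 lay above the filter value on 3 sham, 1 HDAC4-NT and 0 TAC luciferase arrays. It was tested because it was high in sham, so its negative values add no support. Adgre1 had 6.74, 6.74 and 6.82 in HDAC4-NT hearts, 6.97, 6.52 and 6.70 in TAC luciferase hearts and 6.21, 6.20 and 6.24 in sham hearts. Lyz2 and Mrc1 passed neither comparison, at 0.46 and 0.28 in TAC luciferase hearts (limma adjusted p 0.0629 and 0.21) and at 0.41 and 0.22 in HDAC4-NT hearts (0.103 and 0.355). In TAC luciferase against sham, Mrc1 passed without TAC luciferase heart 1 (0.46, adjusted p 0.00821). Lyz2 passed there without TAC luciferase heart 2 (0.58, adjusted p 0.0376). Adgre1 and Laptm5 kept their calls in both comparisons without each array in turn. Cd14 lost its call without any array other than TAC luciferase heart 1 (adjusted p up to 0.136). In HDAC4-NT against sham, Cd68 and Fcer1g lost theirs without sham heart 1 or 2 or any HDAC4-NT heart, Tyrobp without sham heart 1 or 2 or HDAC4-NT heart 2 or 3, and Lyve1 without any sham heart or HDAC4-NT heart 1 or 3. Between the TAC groups limma called 0 of 14 markers, with 3 at an unadjusted p under 0.05, against 1807 of all 12597 tested genes.

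Summed on the linear scale, the 16 macrophage markers ran from 3317.1 to 3813.2 in HDAC4-NT hearts, from 3515.2 to 4249.5 in TAC luciferase hearts and from 2680.5 to 3044.2 in sham hearts. Lyz2 had the highest values of these markers and weighs most in the sums. The mean of the C1q chains exceeded the mean of the 14 tested markers by 1.12 to 1.22 log2 units with HDAC4-NT, by 1.18 to 1.42 with TAC luciferase and by 0.80 to 0.90 in sham. The marker mean includes markers with low differences, such as Lyve1 (-0.88) and Mertk (0.03) in HDAC4-NT against sham. It also includes Cd163 (-0.11), which passed the filter through the sham hearts. Single markers changed as much as the chains, such as Laptm5 (0.81) and Fcer1g (0.61) in HDAC4-NT hearts and Fcer1g (0.89) in TAC luciferase hearts. Which cells held the RNA of these markers was not measured, and the part of macrophage number in the C1q result was not tested. Of 8 fibroblast markers, Dcn, Lum, Col1a1 and Col3a1 rose in each TAC group against sham, and Pdgfra, Tcf21, Dpt and Gsn passed neither comparison. Of 7 endothelial markers Cdh5 rose in both, and Kdr and Tie1 fell in TAC luciferase against sham. Over all tested genes 11.2% rose and 14.9% fell in TAC luciferase against sham, and 10.5% rose in HDAC4-NT against sham. The endothelial sum ran from 6227.2 to 6382.3 in HDAC4-NT hearts, from 5137.5 to 5578.2 in TAC luciferase hearts and from 5262.6 to 5711.9 in sham hearts. All 7 markers were higher with HDAC4-NT than with TAC luciferase, with 0 called and 4 at an unadjusted limma p under 0.05. Of all 12597 tested genes, 1807 had such a p in that comparison. The part of these cell types in the results was not tested. Of 8 neutrophil markers 1 was tested, Csf3r, and its highest value was 5.74. Of 8 T and B lymphocyte markers 2 were tested, Cd3e and Cd4, and 0 were called in either comparison with sham. Liver markers were low, with Alb at most 6.43 and Serpina1a at most 5.13.

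The same 14 markers were set beside C3ar1 to see whether the split of the TAC luciferase hearts was shared. Cx3cr1, the fractalkine receptor of resident macrophages, had 6.58, 6.75 and 6.60 in HDAC4-NT hearts, 6.64, 5.95 and 5.90 in TAC luciferase hearts and 6.11, 6.18 and 6.08 in sham hearts. As with C3ar1, hearts 2 and 3 lay below sham and heart 1 within the HDAC4-NT range. Fcgr1, an Fc receptor, showed the same order in a narrow range, at 5.88 in heart 1 and at 5.71 and 5.70 in hearts 2 and 3. Over the 9 arrays C3ar1 correlated at 0.91 with Cx3cr1 and at 0.81 with Fcgr1, and at 0.35 with Adgre1. Cd14, Lyve1 and Mrc1 ran the other way, with Cd14 at 5.73 in heart 1, 6.34 in heart 3 and higher still in heart 2. Relative to the sham mean, Mrc1 stood at -0.09 in heart 1 and at 0.53 and 0.39 in hearts 2 and 3. Its correlation with C3ar1 was -0.55. The choice to name Cx3cr1, Fcgr1, Cd14 and Lyve1 was made with their values in view. The macrophage sum was 4249.5 in heart 1 and 3589 and 3515.2 in hearts 2 and 3, all above sham. Lyz2, the marker with the highest values, weighs most in this sum. It lay 0.89 log2 units above the sham mean in heart 1 and 0.22 and 0.27 above it in hearts 2 and 3. The sum of 4 atrial genes was 318.9, 442.8 and 2002.7 in hearts 1, 2 and 3. The part of these differences, or of the sample code, in the C3ar1 split was not tested.

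**Figure D3:**
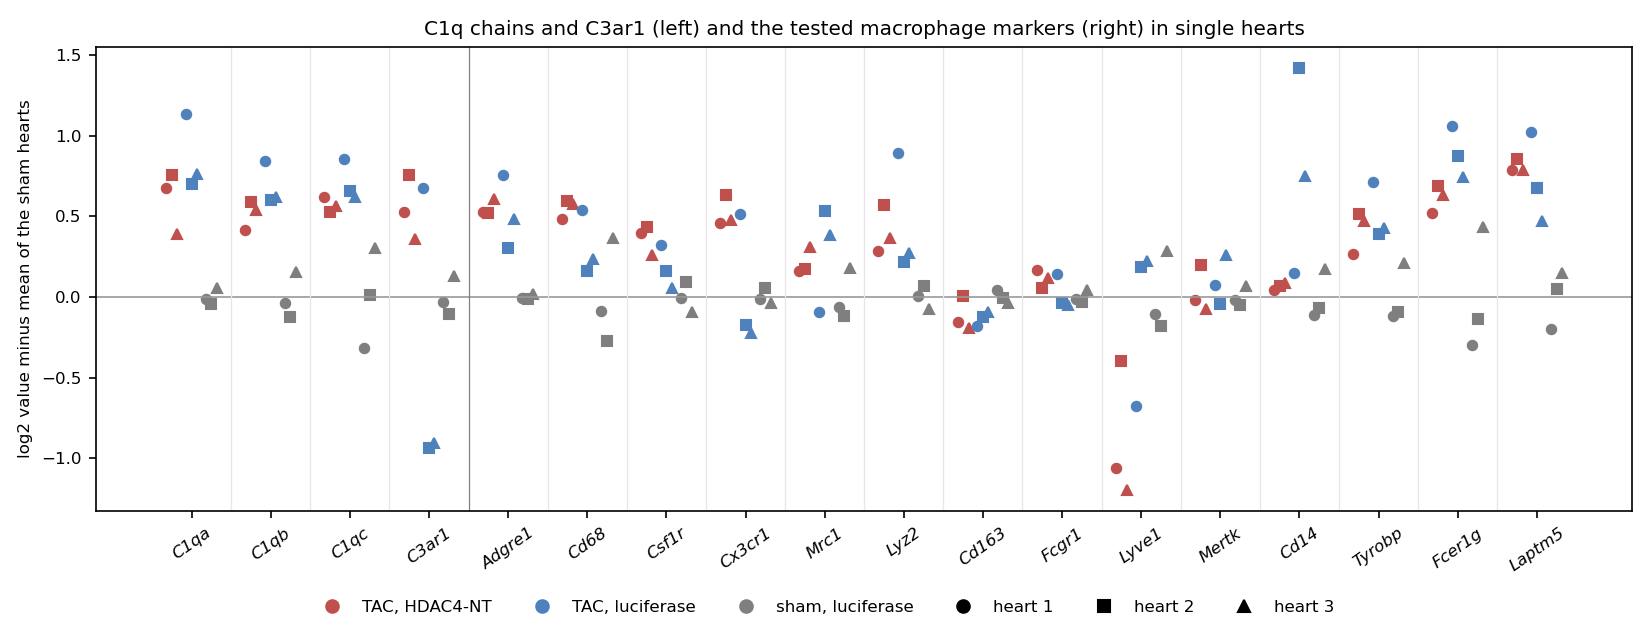
Log2 value minus the mean of the sham hearts for the C1q chains, C3ar1 and the 14 tested macrophage markers in each heart, coloured by group with symbols for the heart number. TAC luciferase hearts 2 and 3 lie with the other TAC hearts for the C1q chains and below the sham mean for C3ar1 and Cx3cr1, and above the other TAC hearts for Cd14.

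The rest of the pathway was followed in a list of 38 other complement genes, of which 36 were annotated and 18 tested. Of the terminal components, Hc, C6, C8a, C8b and C9 never exceeded the filter value, nor did the lectins Mbl1 and Mbl2. C7 and C8g were tested and not called. C7 had 7.81, 7.51 and 7.38 in HDAC4-NT hearts, 7.89, 7.46 and 7.92 in TAC luciferase hearts and 7.30, 7.29 and 7.54 in sham hearts. It stood at 0.38 in TAC luciferase against sham (limma adjusted p 0.0837, and 0.0188 without TAC luciferase heart 2) and at 0.19 in HDAC4-NT against sham (0.414). Of the 18, limma called 5 higher and 0 lower in TAC luciferase against sham and 6 higher and 3 lower in HDAC4-NT against sham. The higher counts include C1s1, which entered the test only through its TAC values. The shares over all genes were 11.2% higher and 14.9% lower in the first of these comparisons, and 10.5% higher and 12.3% lower in the second. The list medians were 0.06 and 0.02. Between the TAC groups 0 of 18 were called, and Masp1 alone had an unadjusted limma p under 0.05, against 1807 of all 12597 tested genes.

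Upstream in the cascade, the C1 inhibitor gene and the protease gene C1ra rose in both TAC groups against sham. Serping1, the C1 inhibitor, had 11.19, 11.11 and 10.99 in HDAC4-NT hearts, 11.35, 10.96 and 11.14 in TAC luciferase hearts and 10.19, 10.34 and 10.14 in sham hearts. It rose 1.90-fold in TAC luciferase hearts (log2 fold change 0.92, SE 0.10, limma adjusted p 0.000262) and 1.83-fold in HDAC4-NT hearts (0.87, adjusted p 0.000381), both against sham. C1ra rose by 0.52 log2 units in TAC luciferase hearts and by 0.45 in HDAC4-NT hearts. C1ra lost its second call without sham heart 3 or HDAC4-NT heart 1 or 2 (adjusted p up to 0.0597). C1s1, the other C1 protease gene, had 5.70, 5.69 and 5.73 in HDAC4-NT hearts, 5.77, 5.60 and 5.75 in TAC luciferase hearts and 5.50, 5.44 and 5.40 in sham hearts, around the filter value. It passed the filter on 5 TAC arrays and 0 sham arrays, so it was tested only because it was high in TAC, and its calls (0.26 in each TAC group) support nothing further. C1ra, C1s1, Cd55 and Cd59a each have a close relative in the mouse genome, and their assignment is uncertain in the same way.

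Masp1, a protease of the lectin pathway, had 7.25, 7.25 and 7.39 in HDAC4-NT hearts, 7.01, 7.06 and 6.94 in TAC luciferase hearts and 6.58, 6.75 and 6.56 in sham hearts. The 3 groups did not overlap. Masp1 rose by 0.67 log2 units with HDAC4-NT and by 0.37 with luciferase against sham (limma adjusted p 0.000187 and 0.00366). It was higher with HDAC4-NT than with luciferase by 0.29 (SE 0.07, adjusted p 0.0896), which passed only with weighted arrays (adjusted p 0.0303).

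Cd93, a surface protein of endothelial and myeloid cells once described as a C1q receptor, rose by 0.45 log2 units in TAC luciferase hearts and by 0.51 in HDAC4-NT hearts. The first call was lost without sham heart 3 or TAC luciferase heart 2 or 3 (limma adjusted p up to 0.0632). Clu, the gene of clusterin, which binds terminal complement complexes, rose by 0.34 in HDAC4-NT hearts and stood at 0.21 in TAC luciferase hearts (adjusted p 0.0182 and 0.103). Cfp (properdin, which stabilises the alternative pathway enzyme) fell by 0.37 log2 units in HDAC4-NT hearts against sham. Cd59a, which blocks the terminal complex, fell by 0.38, and Calr, an endoplasmic reticulum chaperone that can bind C1q, fell by 0.25. In TAC luciferase against sham Cfp, Cd59a and Calr stood at -0.28, -0.28 and -0.19 with adjusted p-values of 0.0606, 0.0804 and 0.0755. Their calls and that of Clu were each lost without at least 3 of the 9 arrays. Sham hearts 1 and 3 were among these for each gene, with adjusted p-values up to 0.0972, and HDAC4-NT heart 1 for Cfp and Calr, heart 2 for Cd59a, and heart 3 for Cfp, Calr and Clu completed them.

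**Figure D4:**
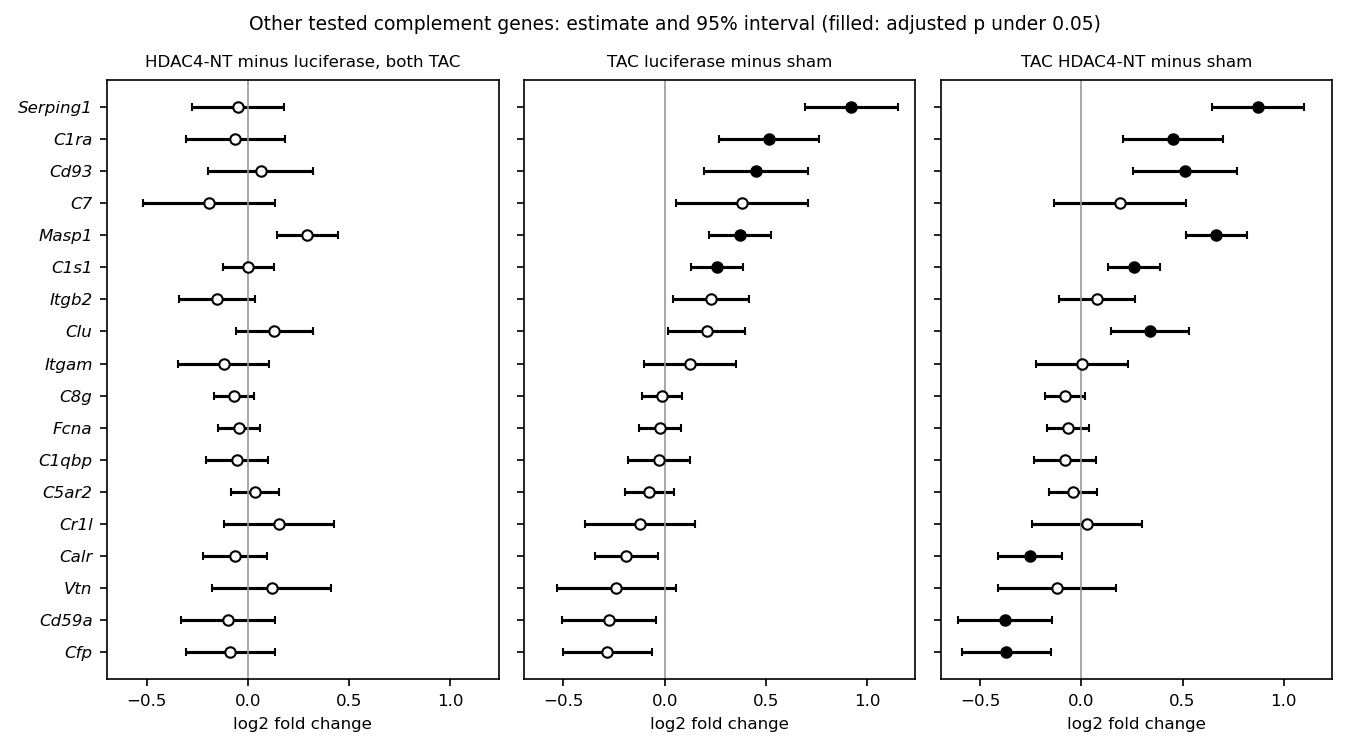
Log2 fold changes (points) with 95% intervals (bars) of the 18 other tested complement genes in the 3 comparisons, filled where the limma adjusted p is under 0.05. Serping1, C1ra, Cd93, Masp1 and C1s1 are filled in both comparisons with sham, and Clu, Calr, Cd59a and Cfp in HDAC4-NT against sham.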

How the data were processed

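Per the labels' protocols, Trizol RNA of whole hearts was hybridised as biotinylated cRNA. The authors deposited log2 expression values and their processing notes name RMA. Sorted, the 9 arrays held the same values, which is what quantile normalisation gives. Its version, the probe set definitions and the build: not given in the sources used here. Precision is limited by the number of arrays, and p-values measure the spread between these hearts.

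Of 21225 probe sets, 20239 had 1 gene symbol and 986 were not listed in the annotation. Gene IDs all matched RefSeq, which supplied names and upstream sequences. Genes above the 40th percentile of all values on at least 3 arrays were tested (12597). One limma model (limma 3.58.1, R 4.3.3) over 9 arrays with 3 groups gave fold changes, standard errors, 95% intervals and Benjamini-Hochberg adjusted p-values over all tested genes. The fit was also run on simulated data, independent normal values with each gene's SD and changes added to TAC luciferase only. That simulation held no split group, so it cannot show how the fit handles the split TAC luciferase hearts. Figures used matplotlib 3.10.9.

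The members and lists were chosen with earlier results of these data known. All members, macrophage markers Adgre1, Cd68, Csf1r, Mrc1 and Lyz2, other complement genes past the threshold in any comparison, and the genes most correlated with each member were named. Alternatives were other filters, priors, scaling, array weights, blocks, thresholds, only the arrays compared, and leaving out each array. Leaving out TAC luciferase hearts 2 and 3 together was added after seeing the data.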

Additional observations from a re-analysis of the deposited data

How the results depend on the processing

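Of 378 values of the member fold changes under other settings, 360 kept direction and side of the threshold, 2 lost a call, 7 gained one and 9 changed sign. C1qa, C1qb, C1qc and C4b against sham kept both in 143 of 144, the exception being C1qc in HDAC4-NT against sham without HDAC4-NT heart 1. Without each array in turn they ran from 0.41 to 0.95 log2 units. The highest value, 1.13 for C1qa, came from the fit with 1 TAC luciferase heart left. The tallies of 378 and 144 include that fit, whose calls add no support. In HDAC4-NT against sham it repeats the fit of only the arrays compared. The sign changes were in differences that had not passed. C4b between the TAC groups was 0.0426 with weighted arrays and ran from -0.118 to 0.0515 without each array in turn. C5ar1 in HDAC4-NT against sham was -0.0113 with weighted arrays and ran from -0.0678 to 0.203 without each array. C3ar1 without TAC luciferase hearts 2 and 3 was -0.13 between the TAC groups and 0.68 in TAC luciferase against sham, with 1 TAC luciferase heart left. The cause was not tested.

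Between the TAC groups, 1 member passed with weighted arrays, and 0 to 1 without each array in turn. Of the other complement genes 1 passed with weighted arrays and 1 at an adjusted p under 0.10. In TAC luciferase against sham, 9 other complement genes passed with a random block for the number that opens each sample code and 10 at an adjusted p under 0.10, against 5. No code number is shared between groups, so this block cannot separate the code from the group. Its estimated correlation was -0.113, and it raised the calls over all genes to 3988, against 3283. The count of 9 is thus no support for these genes. In HDAC4-NT against sham, 3 members and 3 other genes passed at an adjusted p under 0.01, against 5 and 9. Without each array in turn these 2 counts ran from 3 to 6 and from 4 to 9. Over all genes, 51.7% of calls in TAC luciferase against sham were higher under cyclic loess scaling, against 42.8%, while the calls of the members did not change. Between the TAC groups the number of genes called ranged from 0 with only the 6 arrays compared to 827 with weighted arrays, against 32.

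No strong likeness was seen between hearts with the same replicate number, but 3 hearts per group cannot settle whether they were paired. Deviations from the group means of same-numbered hearts correlated between -0.12 and 0.20. With the replicate number as a block, 0, 4 and 5 members and 0, 6 and 8 other complement genes passed in HDAC4-NT against TAC luciferase, TAC luciferase against sham and HDAC4-NT against sham. Low expression limits Cfb, C1s1, Hc, C6, C8a, C8b and C9, since RMA compresses differences between low values.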
